A study of Homo sapiens with 8 samples.

Results

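H/ACA small nucleolar RNAs and the small RNAs of Cajal bodies were followed in prostate cells treated with Pao extract, a bark extract of the tree Pao Pereira. Genes were taken when a probe set carried a single symbol that began with SNORA or SCARNA and a number, and each gene was read from whichever of its probe sets was brightest on average. This gave 86 RNAs of 22468 genes measured, 65 of the SNORA and 21 of the SCARNA series. Total RNA of BPH1 cells, a prostate epithelial line derived from benign hyperplasia, and of WPMY-1 cells, a prostate stromal myofibroblast line, was hybridised to Affymetrix Human Transcriptome Array 2.0 chips after vehicle or Pao extract at 250 μg/ml. The labels give 48 h of treatment for every group, as does the study's legend for these arrays, while its methods text gives a shorter time. Each of the 4 groups, BPH1 or WPMY-1 cells with vehicle or with Pao extract, held 2 arrays, named repeat 1 and repeat 2. Each line is a single established line, and the labels do not say whether the repeats came from separate cultures, so p-values measure the spread between arrays, which may be technical.

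H/ACA RNAs fold into a pair of hairpins and guide the enzyme dyskerin to uridines that it turns into pseudouridine. Most SNORA RNAs act in the nucleolus on ribosomal RNA, whereas SCARNA RNAs stay in Cajal bodies and guide changes of spliceosomal RNAs. In human cells nearly all are cut from introns of other genes rather than made from promoters of their own. The SCARNA name marks the place, not the fold. By textbook class, 12 of the 21 SCARNA RNAs were H/ACA, 4 (SCARNA5, SCARNA6, SCARNA10 and SCARNA12) carried both kinds of box, 3 (SCARNA2, SCARNA7 and SCARNA17) were C/D RNAs, which guide methylation, and 2 (SCARNA9L and SCARNA27) were not assigned.

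The sequence of a microRNA that lies within SCARNA3, one of the RNAs that stood out in BPH1 cells, is shown first, because a signal over this stretch cannot be given to one of the pair of RNAs alone. In RefSeq (GRCh38.p14) the hairpin MIR1843 occupies chr1:175968370-175968479 on the minus strand and reaches beyond SCARNA3, while the mature hsa-miR-1843 at chr1:175968440-175968459 lies wholly inside it. Capitals mark the mature part in the hairpin and the seed, bases 2 to 8, in the mature RNA.
MIR1843: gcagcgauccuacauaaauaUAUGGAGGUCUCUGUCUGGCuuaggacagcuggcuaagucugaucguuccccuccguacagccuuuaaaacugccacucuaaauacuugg
hsa-miR-1843: uAUGGAGGucucugucuggc
The microRNA gene had no probe set with its symbol alone.

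The lines kept the markers of their labels. The median of the epithelial markers was 9.78 to 9.84 on the log2 scale in BPH1 arrays and 5.46 to 5.75 in WPMY-1 arrays, and that of the stromal markers 5.63 to 5.87 against 7.88 to 8.09. Medians of leukocyte markers, which neither line should express, were 4.48 to 4.69, although 1 of those values reached 8.13, and medians of endothelial markers were 3.26 to 3.39. Array medians over all probe sets were 4.50 to 4.57, and arrays of a group correlated at 0.995 to 0.997. The highest leukocyte median, 4.69, was used as the level near which a probe set is not told from background.

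Most H/ACA and Cajal body RNAs were read above that level. In all 4 groups 8 of the 86, or 9.30%, lay at or below it, against 29.1% of all genes and 33.5% of the 173 genes named SNORD, the C/D counterparts. The SNORD genes include 31 SNORD115 copies, RNAs of the brain whose highest value was 3.69, so all of these copies lay below the level. The 8 were SCARNA14, SCARNA15, SNORA15, SNORA30, SNORA35, SNORA36C, SNORA58 and SNORA70F. SNORA35 is known from brain and is spanned by HTR2C, a serotonin receptor gene. Its 8 values ran from 4.18 to 4.57. SCARNA1, SNORA11E and SNORA16B lay at or below the level in some groups, so 75 RNAs were above it in every group. The means over 8 arrays ran from 2.71 (SNORA15) to 10.96 (SNORA73B), with a median of 6.72. Beside SNORA73B, a U17 RNA that takes part in cutting the precursor of 18S rRNA, SNORA23, SNORA48, SNORA22 and SNORA71A had the highest means. These levels place each probe set on its own scale and do not rank the RNAs by amount.

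Few of these RNAs differed between Pao extract and vehicle in BPH1 cells. In bulk RNA a change in every cell and a change in some cells cannot be told apart. The median difference between Pao extract and vehicle over the 86 RNAs was 0.01 on the log2 scale, beside -0.01 over all genes. Within 0.25 of 0 lay 93.0% of the RNAs, against 97.1% of all genes. None passed limma at an adjusted p of 0.05, nor did any gene (0% called). At an unadjusted p under 0.05 there were 4, against 4.13% of all genes. Past 1.4-fold, 2 RNAs were higher (SNORA2A and SCARNA3), where 0.236% of all genes were, and 0 were lower, where 0.0623% were. Vehicle and Pao extract arrays did not overlap for 9 RNAs that were higher, against 14.4% of all genes, and for 10 that were lower, against 18.8%. With 2 arrays a group the smallest two-sided p of an exact permutation test is 0.333, so single RNAs were judged by limma, whose spread is shared over the 4 groups.

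SNORA2A, an H/ACA RNA of the nucleolus encoded on chromosome 12, had the largest positive difference of means of all 22468 genes in BPH1 cells. Its values were 5.15 and 6.49 with vehicle and 6.55 and 7.79 with Pao extract, repeat 1 before repeat 2. The groups were apart only by the narrow gap between the second vehicle array and the first Pao extract array. The difference was 1.35 (SE 0.63, 95% interval -0.11 to 2.80, 2.54-fold), with an adjusted p of 1.00 in limma. Taken within a repeat number, it was 1.39 in repeat 1 and 1.30 in repeat 2. Leaving out 1 array moved it between 0.68 (without vehicle repeat 1) and 2.02 (without vehicle repeat 2), with 0.72 without Pao extract repeat 2 and 1.97 without Pao extract repeat 1. An omission leaves the repeats unbalanced between the groups, so this range holds part of the gap between repeat 1 and repeat 2. The same applies to the other differences given with 1 array left out.

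In WPMY-1 cells SNORA2A was 6.96 and 8.13 with vehicle and 7.002 and 8.36 with Pao extract. These groups overlapped almost wholly, with a difference of 0.14 (SE 0.63, 95% interval -1.32 to 1.60, adjusted p = 0.94 in limma). Without WPMY-1 vehicle repeat 1 it turned to -0.45 and without Pao extract repeat 2 to -0.54, in each case with the repeats unbalanced. The response of WPMY-1 cells minus that of BPH1 cells was -1.21 (95% interval -3.27 to 0.85, adjusted p = 0.71 in limma), so a difference between the lines was not shown.

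SCARNA3, an H/ACA RNA of Cajal bodies, followed the same pattern at a smaller size. It read 5.41 and 6.28 with vehicle and 6.38 and 6.93 with Pao extract in BPH1 cells. Again the second vehicle array came just under the first Pao extract array. The difference was 0.80 (SE 0.30, 95% interval 0.12 to 1.49, unadjusted p = 0.026 and adjusted p = 1.00 in limma), made of 0.96 in repeat 1 and 0.64 in repeat 2. Without vehicle repeat 1 it was 0.37, without vehicle repeat 2 1.24, and without Pao extract repeat 2 0.53. In WPMY-1 cells the values were 6.01 and 6.42 with vehicle and 6.08 and 6.48 with Pao extract, which overlapped, with a difference of 0.07. With the repeats unbalanced it turned to -0.14 without vehicle repeat 1 and to -0.13 without Pao extract repeat 2. The response of WPMY-1 cells minus that of BPH1 cells was -0.74 (95% interval -1.70 to 0.23, adjusted p = 0.69 in limma). SNORA2A and SCARNA3 were the only 2 of the 86 past 1.4-fold upward within both repeats of BPH1 cells, where 33 of all genes were, and none of the 86 was in WPMY-1 cells, where 53 genes were.

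SNORA65, a nucleolar H/ACA RNA, had the next highest positive difference, without reaching 1.4-fold. BPH1 values were 8.58 and 9.69 with vehicle and 9.20 and 9.93 with Pao extract, so the groups overlapped. The difference of 0.43 (SE 0.35, adjusted p = 1.00 in limma) turned to -0.13 once vehicle repeat 1 was left out, which unbalanced the repeats. WPMY-1 values, 9.69 and 10.03 with vehicle and 9.73 and 10.03 with Pao extract, were nearly equal.

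**Figure D1:**
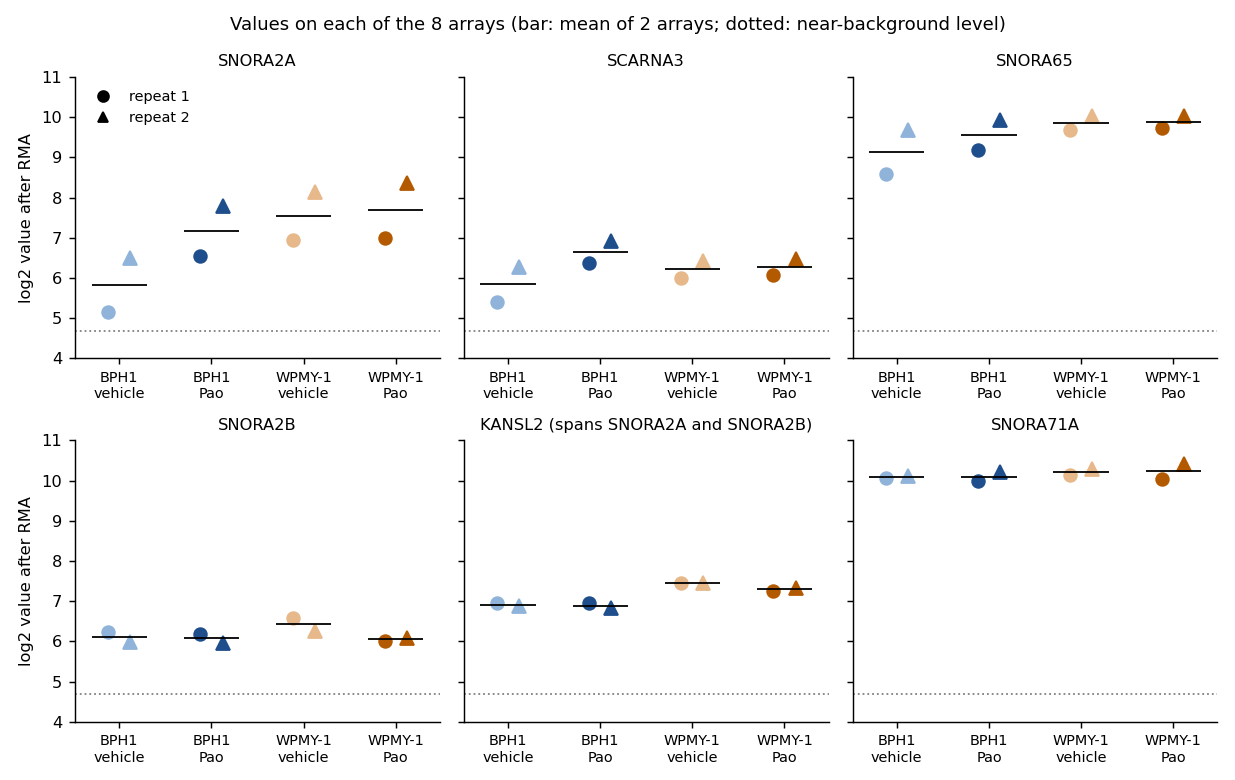
Each panel plots the log2 value on the 8 arrays for 1 gene, with circles for repeat 1, triangles for repeat 2, bars for the mean of 2 arrays and a dotted line at the near-background level of 4.69. SNORA2A, SCARNA3 and SNORA65 are lower in repeat 1 than in repeat 2 in each of the 4 groups, while SNORA2B and KANSL2 show no such step.

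No other RNA had a BPH1 difference past 1.4-fold. SNORA16B (0.36) and SNORA31 (0.23) were the next above 0. SCARNA4, an H/ACA RNA of Cajal bodies, had 6.54 and 5.82 with vehicle and 5.77 and 5.72 with Pao extract. Its difference of -0.44 (SE 0.21, adjusted p = 1.00 in limma) rested on the high first vehicle array. SCARNA18 had the smallest p of the 86, with 5.85 and 5.67 against 5.46 and 5.43. The groups were apart and the difference was -0.32 (SE 0.08, unadjusted p = 0.0054, adjusted p = 0.90 in limma). SNORA77 (-0.25), SNORA11E (-0.25) and SNORA13 (-0.23) completed the lower end. For SNORA11E the means of both BPH1 groups, 4.63 with vehicle and 4.38 with Pao extract, lay below the near-background level.

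In WPMY-1 cells the median of the 86 was -0.01, beside 0.03 for all genes, and 48 of the 86 were below 0. None passed limma, where 0.0668% of all genes did, and 11 had an unadjusted p under 0.05, where 11.2% of all genes did. Past 1.4-fold, 0 were higher (0.392% of all genes) and 1 was lower (0.632%). That 1 was SCARNA15, an H/ACA RNA from which a microRNA-like fragment is known in human cells. Its values were 4.38 and 4.43 with vehicle and 4.16 and 3.62 with Pao extract. All were below the near-background level of 4.69, so by that level the difference of -0.51 is not told from background. They lay above the SNORD115 level of 1.99, a second background, so whether the difference measures its RNA is not settled. Without WPMY-1 vehicle repeat 1, or without vehicle repeat 2, 3 RNAs were past 1.4-fold lower, and 2 without Pao extract repeat 1. Upward there were 2 without vehicle repeat 2 and 3 without Pao extract repeat 1. Groups did not overlap for 9 RNAs that were higher, against 27% of all genes, and for 12 that were lower, against 16.6%.

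The largest WPMY-1 values belonged to other RNAs than in BPH1 cells. SCARNA20 was 5.72 and 5.88 with vehicle and 6.11 and 6.14 with Pao extract. The groups were apart by 0.33 on average (SE 0.09, adjusted p = 0.31 in limma). SNORA70G, 1 of 6 measured copies of SNORA70, went from 6.11 and 6.08 to 6.32 and 6.42, a difference of 0.27 (adjusted p = 0.27 in limma, the lowest of the 86). SCARNA23 (0.32), SNORA16B (0.29) and SNORA11B (0.27) were also above 0, and SNORA16B lay near background in the vehicle group (mean 4.68). SNORA2B, which lies in the same gene as SNORA2A, went from 6.59 and 6.27 to 6.0025 and 6.09 (-0.38, adjusted p = 0.40 in limma). SNORA77 (-0.34), SCARNA27 (-0.30) and SCARNA8 (-0.28) followed. SCARNA8, which guides a pseudouridine of the U2 spliceosomal RNA, had 6.67 and 6.70 with vehicle and 6.54 and 6.27 with Pao extract, and in BPH1 cells 6.27 and 6.32 against 6.46 and 6.41. The lines thus had opposite signs for SCARNA8. No RNA passed limma for the difference between the responses of the lines (0% of all genes called), and 2, SCARNA8 (-0.43) and SCARNA15 (-0.58), had an unadjusted p under 0.05, where 7.13% of all genes did.

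**Figure D2:**
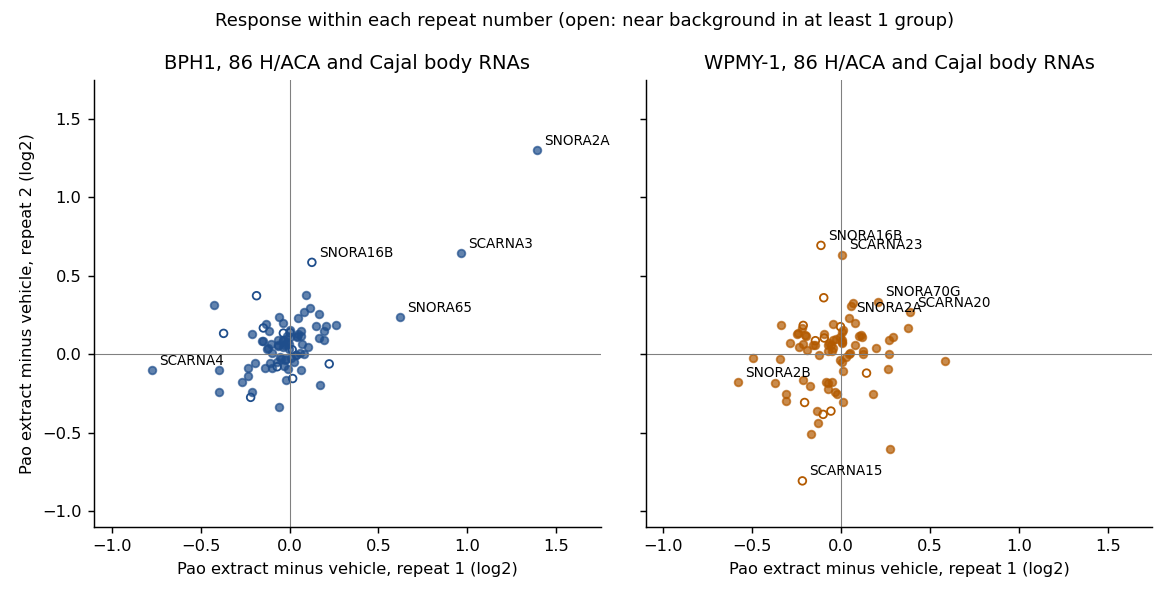
Each point is 1 of the 86 RNAs, placed by its log2 difference between Pao extract and vehicle in repeat 1 (horizontal) and in repeat 2 (vertical), for BPH1 and WPMY-1 cells; open points were near background in at least 1 group. In BPH1 cells SNORA2A (1.39 and 1.30) and SCARNA3 (0.96 and 0.64) stand away from a cloud around 0, and in WPMY-1 cells no RNA does so in both repeats.

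SNORA2A differed between the repeat numbers about as much as between Pao extract and vehicle in BPH1 cells. Repeat 2 minus repeat 1 was 1.34 in BPH1 vehicle, 1.25 in BPH1 Pao extract, 1.18 in WPMY-1 vehicle and 1.36 in WPMY-1 Pao extract. Repeat 2 was the higher array in all 4 groups, by a similar amount. In a limma fit with group and repeat as terms, added after these values were seen, the step was 1.28 (SE 0.04, adjusted p = 0.0015), the largest in size of all genes and 1 of 2 genes called (0.0089%). The fit behind the BPH1 difference had no repeat term, so its SE of 0.63 holds this step. The SE and adjusted p of the step are therefore not comparable with those of the BPH1 difference. SCARNA3 had steps from 0.40 to 0.87 (0.56 in the fit, adjusted p = 0.058) and SNORA65 from 0.29 to 1.11 (0.62, adjusted p = 0.078). The 3 RNAs with the highest positive differences in BPH1 cells were thus the 3 of the 86 past 1.4-fold higher in repeat 2, where 0.0312% of all genes were. None was past 1.4-fold lower (0.134%), and 40 had an unadjusted p under 0.05 (26.9%). SCARNA4, whose BPH1 difference of -0.44 was as large in size as that of SNORA65, had a step of -0.08 in the fit, a mean of unlike values. Its repeats differed by -0.72 in BPH1 vehicle, -0.04 in BPH1 Pao extract, 0.03 in WPMY-1 vehicle and 0.41 in WPMY-1 Pao extract. What the repeat number marks is not given. Within a repeat number the BPH1 differences were 1.39 and 1.30 for SNORA2A, 0.96 and 0.64 for SCARNA3, and 0.62 and 0.23 for SNORA65.

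The step was shared more widely in the family, at a small size. Of the 86 RNAs, 32 were higher in repeat 2 in all 4 groups, or 37.2%, against 23.9% of all genes and 11.6% of the SNORD genes. Another 5 were lower in all 4, or 5.81%, against 12.9% of all genes. The median step was 0.10 over the 86, 0.03 over all genes and -0.01 over the SNORD genes, which include the SNORD115 copies near background. By group the median over the 86 was 0.01 in BPH1 vehicle, 0.09 in BPH1 Pao extract, 0.10 in WPMY-1 vehicle and 0.18 in WPMY-1 Pao extract. SNORA12 was among those higher in repeat 2 (0.32), while SNORA46 and SCARNA27 were the lowest (both -0.37). Across the 86 RNAs the steps of 2 groups correlated at 0.34 to 0.77 (Pearson), beside 0.20 to 0.50 across all genes, a description over RNAs that share arrays.

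**Figure D3:**
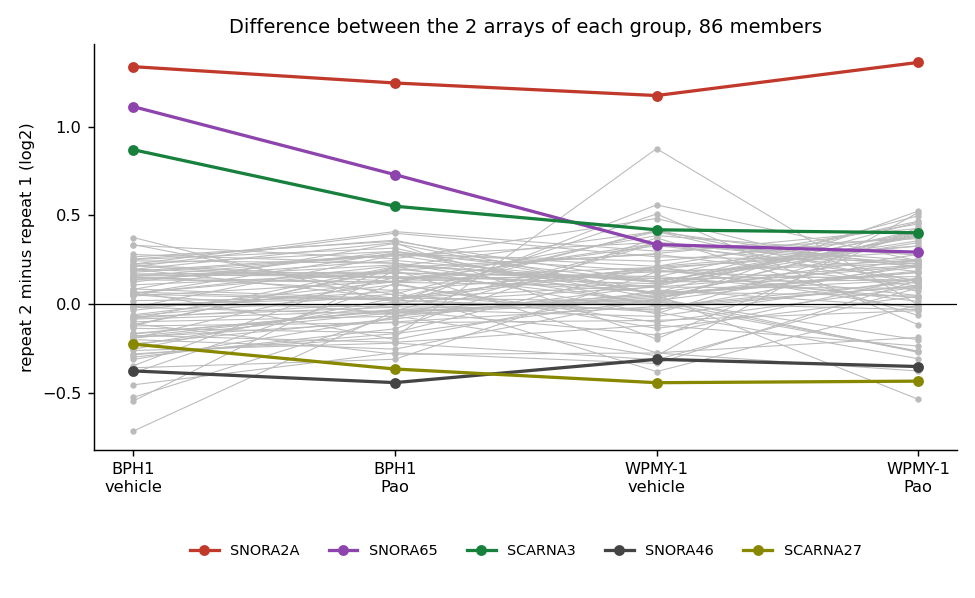
Each line joins the repeat 2 minus repeat 1 differences (log2) of 1 RNA over the 4 groups, grey for most of the 86 and coloured for 5 that are named. SNORA2A lies above 1.17 in every group, SNORA65 and SCARNA3 above 0 in every group, and SNORA46 and SCARNA27 below 0 in every group.

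More of these RNAs passed the test between the lines than between treatments. With vehicle, 19 of the 86 passed limma between WPMY-1 and BPH1 cells, or 22.1%, where 30.9% of all genes did. Of these, 12 were higher in WPMY-1 cells (15.3% of all genes) and 7 were lower (15.6%). Past 1.4-fold, 11 were higher (8.38%) and 6 lower (8.51%). The median over the 86 was 0.08. The count fell to 12 without BPH1 vehicle repeat 1 and rose to 23 without either WPMY-1 Pao extract array. SNORA3B, SNORA13, SNORA20, SNORA28, SNORA54, SNORA55, SNORA73B, SNORA79 and SCARNA4 passed with each of the 8 arrays left out in turn, and the other 10 calls were lost at least once.

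SNORA13, an H/ACA RNA known in human cells for a part in ribosome assembly and senescence, was higher in WPMY-1 cells by the most. It read 6.83 and 6.69 in BPH1 and 8.66 and 8.87 in WPMY-1 vehicle arrays. The groups were far apart, by 2.00 (SE 0.12, adjusted p = 7.57e-06 in limma), and Pao extract arrays kept the same order (6.62 and 6.45 against 8.65 and 8.97). SNORA28 followed with 5.51 and 4.97 against 6.31 and 6.03 (0.93, adjusted p = 0.0040 in limma). SNORA26 (0.71), SNORA12 (0.66), SNORA3B (0.65), SNORA73B (0.59), SNORA55 (0.59), SNORA54 (0.51), SNORA77 (0.51), SNORA74B (0.43), SCARNA8 (0.39) and SCARNA18 (0.38) were also called higher. SNORA2A (1.72, SE 0.63, adjusted p = 0.075) and SNORA65 (0.72, SE 0.35, adjusted p = 0.17) had large differences that did not pass, since their repeats lay far apart. With 1 array left out the difference ran from 1.05 to 2.39 for SNORA2A and from 0.17 to 1.28 for SNORA65. Leaving out a vehicle array unbalances the repeats between the lines, so these ranges hold part of the gap between repeats.

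SNORA20 was lower in WPMY-1 cells, with 9.05 and 9.18 in BPH1 and 7.80 and 7.92 in WPMY-1 vehicle arrays. No array of one line reached those of the other, and the difference was -1.26 (SE 0.14, adjusted p = 2.5e-04 in limma). SCARNA4 was 6.54 and 5.82 against 5.16 and 5.19 (-1.01, SE 0.21, adjusted p = 0.0070 in limma). SNORA79 was 6.48 and 6.61 against 5.64 and 5.74 (-0.86, SE 0.13, adjusted p = 0.0012 in limma). SNORA50A (-0.51), SCARNA5 (-0.44), SNORA31 (-0.42) and SCARNA7 (-0.30), a C/D guide for the U1 spliceosomal RNA, were the others called lower. SNORA16B (-0.58), which lay near background in WPMY-1 vehicle arrays, and SNORA14A (-0.51) did not pass.

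**Figure D4:**
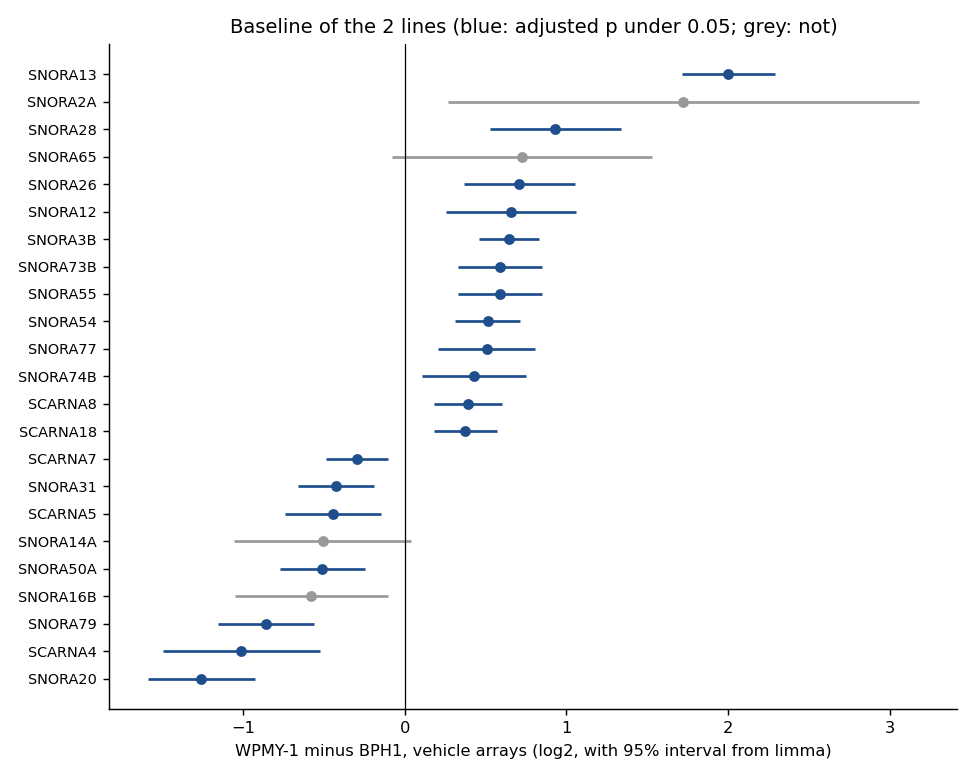
Points show the log2 difference between WPMY-1 and BPH1 vehicle arrays for 23 named RNAs and bars its 95% interval from limma, in blue for the 19 with an adjusted p under 0.05 and in grey for SNORA2A, SNORA65, SNORA14A and SNORA16B. SNORA13 (2.00) has the highest point and SNORA20 (-1.26) the lowest, and the bar of SNORA2A is the widest.

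The genes that span these RNAs were compared next, because a probe set inside an intron also reads the unspliced RNA of its host and the pair cannot be told apart here. In RefSeq 84 of the 86 lay within another gene, all but SCARNA2 and SNORA50C, and 66 had a spanning gene with a probe set of its own symbol (59 genes, strand not checked). At baseline, members and spanning genes correlated at 0.59 (Pearson, 66 pairs on the same arrays). Of 16 called RNAs with a measured spanning gene, 12 had a spanning gene called in the same direction, 0 had one called in the opposite direction, and for 4 it was not called. Of all genes 30.9% were called, and over the 66 pairs the signs were the same for 52. Spanning genes were also called around RNAs that were not, in places with the other sign, as COP1 (-0.45) around SCARNA3 (0.37). The called pairs were of like size for SNORA26 (0.71) and the non-coding RNA DANCR (0.69), for SNORA79 (-0.86) and GTF2A1 (-0.78), a subunit of the general factor TFIIA, for SNORA55 (0.59) and the poly(A)-binding protein gene PABPC4 (0.61), and for SNORA31 (-0.42) and TPT1 (-0.45). SNORA13 differed more (2.00) than EPB41L4A-AS1 (0.76), the non-coding gene around it. SNORA77 differed less (0.51) than ATP2B4, a calcium pump gene (1.85). SCARNA4 (-1.01) lay in KHDC4, which had -0.13 and was not called, and SCARNA5 (-0.44) in the autophagy gene ATG16L1, which had -0.02.

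For the treatment and repeat differences the correlations were lower. Between Pao extract and vehicle the pairs correlated at 0.12 in BPH1 cells and 0.34 in WPMY-1 cells, and between repeats at 0.17 (Pearson). By rank (Spearman) these were 0.26, 0.33 and 0.17, beside 0.65 at baseline. KANSL2, a subunit gene of a histone acetyltransferase complex, spans both SNORA2A and SNORA2B. Its BPH1 difference was -0.03 and its repeat step -0.04, and SNORA2B had -0.04 and -0.18, against 1.35 and 1.28 for SNORA2A. COP1, the ubiquitin ligase gene around SCARNA3, had a BPH1 difference of 0.04. RPL12, the ribosomal protein gene around SNORA65, had -0.04.

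**Figure D5:**
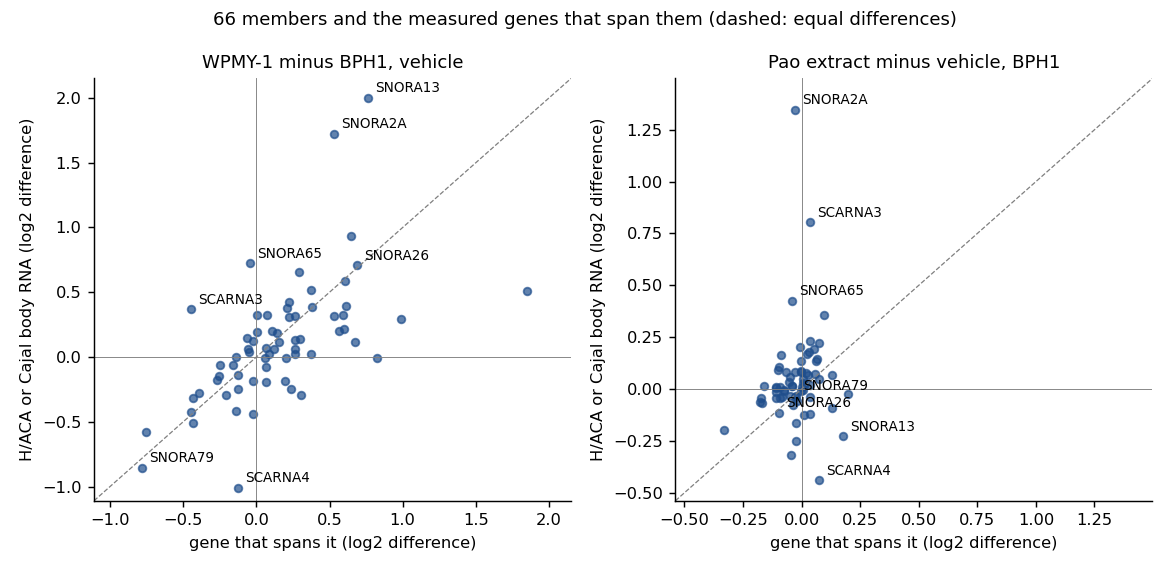
Each point is 1 of 66 RNAs, with the log2 difference of its spanning gene on the horizontal axis and its own on the vertical axis, at baseline (left) and between Pao extract and vehicle in BPH1 cells (right); the dashed line marks equal differences. SNORA26 and SNORA79 lie near that line at baseline, SNORA13 above it, and on the right SNORA2A (1.35) and SCARNA3 (0.80) stand above spanning genes near 0.

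Promoters of 3 spanning genes are given because these starts make the host RNAs compared above: KANSL2 around SNORA2A, and DANCR and GTF2A1 as the pairs of like size. They are the 120 bases before each RefSeq start (GRCh38.p14), at chr12:48682239-48682358 on the minus strand, chr4:52712274-52712393 on the plus strand and chr14:81221391-81221510 on the minus strand. Capitals mark CACGTG (the E-box of MYC and related factors), CCAAT or its reverse ATTGG, and the GC box GGGCGG or its reverse CCGCCC.
KANSL2: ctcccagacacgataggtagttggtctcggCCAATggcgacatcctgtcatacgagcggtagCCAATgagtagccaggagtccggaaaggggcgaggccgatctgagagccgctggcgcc
DANCR: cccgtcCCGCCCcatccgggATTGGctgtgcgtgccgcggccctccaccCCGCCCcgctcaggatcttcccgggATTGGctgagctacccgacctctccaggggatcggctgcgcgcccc
GTF2A1: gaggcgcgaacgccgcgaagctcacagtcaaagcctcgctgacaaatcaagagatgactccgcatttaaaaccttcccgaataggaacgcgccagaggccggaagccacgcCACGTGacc
KANSL2 held 2 CCAAT matches, DANCR 2 CCAAT and 2 GC box matches, and GTF2A1 1 E-box match. In 35116 RefSeq promoters the same window held the E-box in 3.90%, CCAAT in 20.4% and the GC box in 34.0%. A match is a description of the letters only.

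Genes of the proteins that carry or use these RNAs were read as RNA, and no protein was measured. Of 31 such genes, for H/ACA particles, Cajal bodies and telomerase, C/D particles, and RNA polymerase I with rRNA processing, none passed limma in either line. In BPH1 cells 27 lay below 0, where 12806 of the 22468 genes did, and in WPMY-1 cells 26, where 9029 genes did. Vehicle and Pao extract arrays did not overlap for 9 that were lower in BPH1 cells (29.0%), against 18.8% of all genes. In WPMY-1 cells 17 were lower without overlap (54.8%), against 16.6%. Higher without overlap were 1 in BPH1 cells, against 14.4% of all genes, and 2 in WPMY-1 cells, against 27%. The 7 measured genes of H/ACA core and assembly proteins had a median of -0.06 in BPH1 cells and -0.12 in WPMY-1 cells. Among them were NOP10, NHP2 and GAR1, whose proteins sit with dyskerin on the RNA, and the assembly factor genes NAF1 and SHQ1. The 10 genes of RNA polymerase I and rRNA processing had medians of -0.10 and -0.11. TERC, the telomerase RNA with an H/ACA end, had 0.11 and 0.10. At baseline 9 of the 31 genes passed, or 29.0%, close to the 30.9% of all genes, with 6 higher and 3 lower in WPMY-1 cells. GAR1 (0.43), SHQ1 (0.46), NHP2 (0.23) and TOE1 (0.72), whose protein trims the ends of small nuclear RNAs, were higher. NOP10 (-0.39), the Cajal body scaffold gene COIL (-0.31) and the telomerase enzyme gene TERT (-0.36) were lower, as was TERC (-0.43, adjusted p = 0.038 in limma).

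Copies of a name did not all move together, with the reserve that near-identical copies can share probes. Of the 86, 29 fell into 10 groups of several copies. The 4 measured SNORA71 copies lay between -0.04 and 0.01 in BPH1 cells and differed by 0.17 to 0.22 between the repeats. The 6 SNORA70 copies lay between -0.09 and 0.14 in BPH1 cells, and in WPMY-1 cells their span was -0.26 to 0.27. SNORA2A and SNORA2B were the pair with the widest gap, 1.35 against -0.04 in BPH1 cells.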

How the data were processed

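The authors deposited log2 values after RMA (version not stated) for 67528 probe sets on 8 arrays. No source used here names the probe sets' genome build. Symbols came from the platform's annotation, which gave 1 symbol for 23784 probe sets, several for 1540 and none for 42204. The 1540 probe sets with several symbols were left out, and 38 of them include a SNORA or SCARNA name. Of the members, 2 (SNORA38 and SNORA72) had several probe sets. No further normalization was done. limma 3.58.1 (R 4.3.3, lmFit and eBayes) was fitted to 22468 genes with 1 mean per group, with Benjamini-Hochberg adjustment over all genes, and was tested on simulated data. Named RNAs were those past an adjusted p of 0.05, past 1.4-fold or at either end of a comparison or of the mean levels, with SNORA2A, SCARNA3, the spanning genes and the pathway proteins. The members and lists were chosen with earlier results of these data known. DKC1, TEP1, SMN1 and NOP56 had no probe set with their symbol alone. The 31 SNORD115 copies, brain RNAs used as a second background, had array medians of 1.84 to 1.99. The number of arrays limits the precision. Alternatives covered scaling, filters, cutoffs, probe set choice, the fit, the block and each array left out.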

Additional observations from a re-analysis of the deposited data

How the results depend on the processing

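Of the values of single RNAs under alternatives, 680 kept their direction and their side of the threshold, 44 fell short of it, 11 passed it and 5 turned sign. With 1 array left out, SNORA65 in BPH1 cells ran from -0.13 to 0.98, and SNORA2A and SCARNA3 in WPMY-1 cells from -0.54 to 0.82 and from -0.14 to 0.28. These RNAs differed between repeats, so the ranges hold part of that gap. The median baseline difference (0.08) was 0.110 after quantile normalization, 0.126 after centring, 0.0626 without genes near background, 0.0989 with the mean of probe sets, 0.114 for SNORA and 0.0210 for SCARNA alone, and 0.0364 to 0.0914 with 1 array left out. Medians with 1 array left out ran from -0.03 to 0.05 in BPH1 and from -0.11 to 0.10 in WPMY-1 cells. At 1.2-fold, 4 RNAs were higher and 2 lower in BPH1 cells and 6 higher and 7 lower in WPMY-1 cells, and at 2-fold 1 was higher in BPH1 and 0 lower in WPMY-1 cells. With 1 array left out, the 1.4-fold counts were 2 to 3 higher and 0 to 1 lower in BPH1 and 0 to 3 higher and 1 to 3 lower in WPMY-1 cells, and 0 were lower in WPMY-1 cells without genes near background. With the replicate number as a block within each line, 1 RNA was called in BPH1 cells (SNORA2A, adjusted p = 0.048 in limma, with 3 of all genes), 0 in WPMY-1 cells (98 of all genes higher and 125 lower) and 39 at baseline. The labels do not say that a number pairs arrays, and the steps between repeats correlated over all genes at 0.20 to 0.50. The methods' t-test called 2, 3 and 11 RNAs unadjusted in BPH1 cells, WPMY-1 cells and at baseline, and 0 at baseline after Benjamini-Hochberg. Baseline calls in limma were 12 to 23 with 1 array left out. Against the SNORD115 level 0 RNAs were near background, and against the upper quartile of the leukocyte markers 12 were. The cause of these changes was not tested.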
